A study of Schizosaccharomyces pombe with 23 samples.

Results

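The stretch described here lies on chromosome II of fission yeast (Schizosaccharomyces pombe), from 12 to 88 kb downstream of a replication fork barrier (RFB) that was inserted into the strains. It runs from 864 to 940 kb in the coordinates of the deposited counts, in which the barrier, RTS1, lies at 852 kb. All bins of 300 bp in that range were taken, whatever their values: 253 bins on each strand of 41909 in the genome, which cover 76 kb. A further 40 bins per strand lie between the barrier and 12 kb downstream and were not used. Distances below are in kb downstream of the barrier.

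Replication starts at origins, each of which sends one fork to the left and one to the right. In a canonical fork, Pol ε copies the leading strand and Pol δ the lagging strand, so that the polymerase found on a given strand tells which way the fork was moving. RTS1 with its binding protein Rtf1 stops forks that come from one side. A stopped fork can be restarted by homologous recombination, and a restarted fork uses Pol δ on both strands (δ/δ), or the unreplicated DNA can be finished by a canonical fork that arrives from the other side. Far downstream, both events change the record left by the polymerases: restarted forks add Pol δ to both strands, and forks from the next origins move leftward through DNA that rightward forks would otherwise have copied.

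Pu-Seq maps ribonucleotides that a mutant polymerase leaves in the DNA it makes. Each library comes from one strain, with the Pol δ allele cdc6-L591G or the Pol ε allele cdc20-M630F, and usage of Pol δ needs a pair of them. RFB ON strains carry rtf1 behind the adh1 promoter (Nat:ADH1:rtf1), and RFB OFF strains have rtf1 deleted (rtf1::Nat). The mutants lack nup132, which encodes a nucleoporin of the Y-complex, or rpn10, which encodes a ubiquitin receptor of the proteasome's regulatory particle. Some of these deletions are marked (nup132::Hygro, rpn10::Hygro) and for others no marker is named. Every strain, controls included, also carries the RTS1::phleo insertion Rura-ChrII, rnh201-RED, ade6-704, leu1-32 and ura4-D18, and all were grown in YE at 30C to log phase. A condition is therefore a set of separate strains, each sequenced as 1 library, and nothing in the labels says whether same-background strains are independent isolates. P-values measure only the spread between these libraries.

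Among 23 libraries, those averaging 10 or more counts a bin were used, 20 in number: 4 of Pol δ and 4 of Pol ε for nup132Δ RFB ON, 3 and 3 for the libraries labelled rpn10Δ RFB ON, 1 and 1 for WT RFB ON, 1 of Pol δ for nup132Δ RFB OFF, and 1 of Pol δ and 2 of Pol ε for WT RFB OFF. Their totals ranged between 5396348 and 38663174 counts (median 12121763). The 253 bins held 28165 to 209348 counts per library, or 55.7 to 414 per bin and strand. Totals of 987 to 7167 counts put aside 3 libraries, of nup132Δ RFB OFF Pol ε, WT RFB ON Pol δ and WT RFB OFF Pol δ. With 1 library of each polymerase, WT RFB ON has no replicate of its own.

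The counts over the altered genes were set against the labels. In the 9 nup132Δ libraries, nup132 held 1.18 to 2.08% of its WT counts. Of the 6 libraries labelled rpn10Δ RFB ON, 4 went against their labels. The Pol ε libraries KK1894 and KK1895 kept 52.8 and 51.1% of the WT counts over rpn10. The Pol δ library KK1581 and the Pol ε library KK1582 had 7.59 and 8.69% of the WT RFB ON counts over rtf1, close to the 4.86 to 7.00% of the RFB OFF libraries. Some results for rpn10Δ are therefore also given without 1 or both of these pairs. The others hold all 6 libraries as labelled. Strand asymmetry over the whole genome outside the 100 kb on either side of the barrier was taken relative to WT RFB OFF. It was 0.623 in nup132Δ RFB ON, 0.466 in the libraries labelled rpn10Δ RFB ON and 1.03 in WT RFB ON. In the libraries labelled rpn10Δ RFB ON it was 0.266 without KK1581 and KK1582, and 0.813 without KK1894 and KK1895. Taken over the genome as a whole, differences between the strands were thus smaller in both mutants, but not in every window.

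Pol δ usage of a strand is the Pol δ count divided by the sum of Pol δ and Pol ε counts, each scaled to its library total and averaged over libraries. In the first segment, 12 to 28 kb downstream, Pol δ usage of the Watson strand was 0.619 in nup132Δ RFB ON (SD 0.0929 over Pol δ and 0.0440 over Pol ε libraries, n = 4 each). It was 0.555 in the libraries labelled rpn10Δ RFB ON (SD 0.152 and 0.0728, n = 3 each), 0.753 in WT RFB ON (n = 1 each) and 0.251 in WT RFB OFF (n = 1 and 2). With the barrier off, Pol ε thus made most of the Watson strand, as in rightward canonical forks, and Pol δ made most of it in nup132Δ RFB ON and WT RFB ON. In the libraries labelled rpn10Δ RFB ON Pol δ usage of Watson was 0.659 without KK1581 and KK1582, and 0.480 without KK1894 and KK1895. On the Crick strand Pol δ usage was 0.488 in nup132Δ RFB ON, 0.520 in the libraries labelled rpn10Δ RFB ON, 0.398 in WT RFB ON and 0.666 in WT RFB OFF. Counting error, which is the only error known for WT RFB ON, gave 95% intervals of 0.746 to 0.760 for Watson and 0.387 to 0.409 for Crick in WT RFB ON. The reads carry no molecular identifiers, so that these intervals cover counting error alone.

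**Figure D1:**
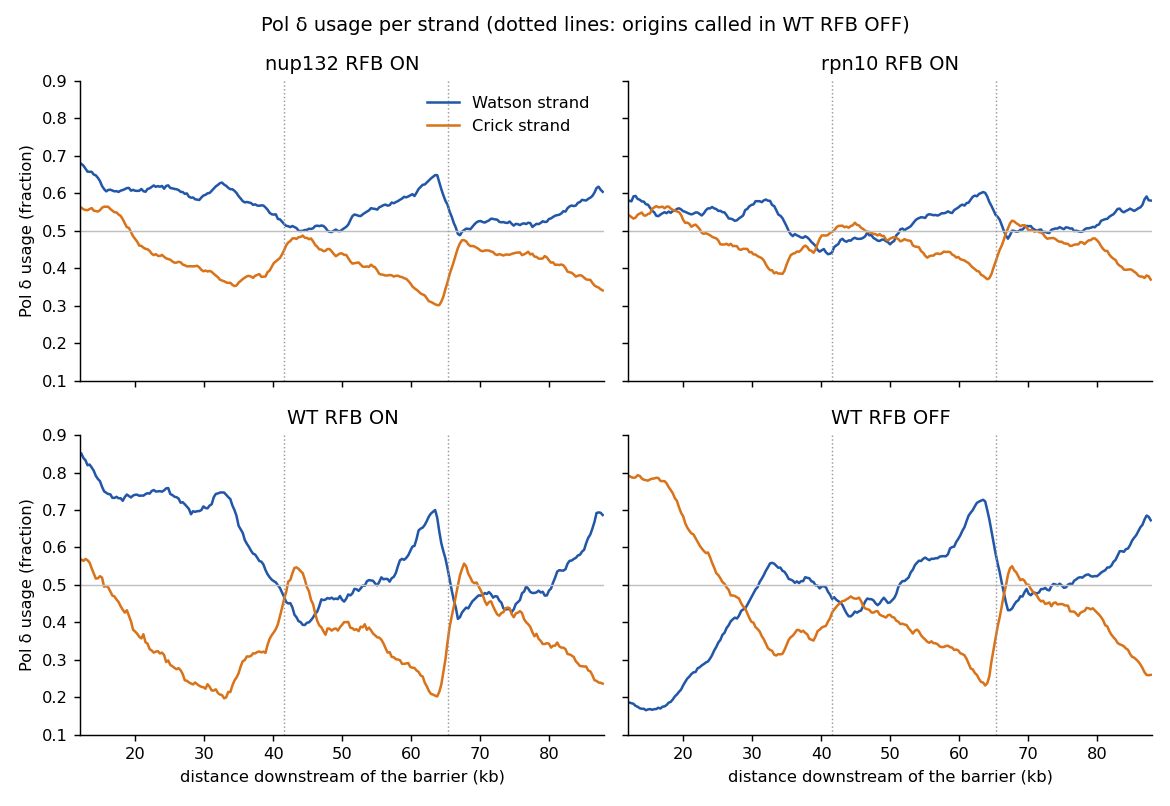
Pol δ usage (fraction, 0 to 1) of the Watson and Crick strands, smoothed over 11 bins, against distance from the barrier in kb, 1 panel per condition, with dotted lines at the origins called in WT RFB OFF. In WT RFB ON the Watson line lies above the Crick line up to 40 kb. In WT RFB OFF it starts far below it (0.174 and 0.785 at 12 to 16 kb). In both mutants the lines lie closer together at 12 to 16 kb than in WT RFB ON or WT RFB OFF. The rpn10Δ panel holds all 6 libraries as labelled. Without KK1581 and KK1582, Crick minus Watson usage there was -0.263, close to the -0.272 of WT RFB ON. In KK1581 and KK1582 by themselves it was 0.498.

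Fork direction is given here as Crick minus Watson Pol δ usage, which is positive where rightward forks prevail, negative where leftward forks prevail, and to which δ/δ forks add 0. Over 12 to 28 kb it was -0.131 in nup132Δ RFB ON (SD 0.155 over Pol δ and 0.0502 over Pol ε libraries), -0.0350 in the libraries labelled rpn10Δ RFB ON (SD 0.213 and 0.116), -0.355 in WT RFB ON and 0.415 in WT RFB OFF. WT RFB ON differed from WT RFB OFF by -0.770. The exact permutation test of strain labels within each polymerase (two-sided) gave p = 0.167, which is the smallest p that 6 arrangements allow. nup132Δ RFB ON differed from WT RFB OFF by -0.546 (exact permutation p = 0.0133, the smallest possible, adjusted p = 0.25 over 40 tests). The libraries labelled rpn10Δ RFB ON differed from it by -0.450 (exact permutation p = 0.05, adjusted p = 0.25). Against WT RFB ON, the value was higher by 0.224 in nup132Δ RFB ON (exact permutation p = 0.2) and by 0.320 in the libraries labelled rpn10Δ RFB ON (exact permutation p = 0.25). The lowest library pair, at -0.326 in nup132Δ RFB ON and -0.215 in the libraries labelled rpn10Δ RFB ON, lay above WT RFB ON in both, and the permutation tests did not pass 0.05. Among the 40 segment tests, 5 had a p under 0.05 and 0 an adjusted p under 0.05.

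The rpn10Δ value depended on which libraries entered it. With KK1581 and KK1582 left out, the first segment had Crick usage of 0.457 and a direction of -0.203, with the 4 library pairs between -0.215 and -0.190. KK1581 and KK1582 by themselves gave a Watson usage of 0.286, a Crick usage of 0.633 and a direction of 0.347, which lies on the side of WT RFB OFF. Without KK1894 and KK1895 Crick usage was 0.575 and the direction 0.0953. In nup132Δ RFB ON, the 16 pairs of 1 Pol δ and 1 Pol ε library ranged between -0.326 and 0.0848. Hygro-marked strains gave -0.0973 and those with no marker named -0.169.

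Single libraries of one group lay far apart. The Watson share, the part of a library's counts on the Watson strand, needs no second polymerase. Among Pol δ libraries over 12 to 28 kb it was 0.684, 0.669, 0.427 and 0.384 in nup132Δ RFB ON (KK1517, KK1901, KK1902 and KK1518). It was 0.7002, 0.6995 and 0.322 in the libraries labelled rpn10Δ RFB ON (KK1869, KK1868 and KK1581), 0.703 in WT RFB ON, 0.284 in nup132Δ RFB OFF and 0.310 in WT RFB OFF. KK1902 and KK1518 lay between the RFB ON and RFB OFF values, although rtf1 held 101 to 119% of the WT RFB ON counts in all nup132Δ RFB ON libraries. One of them is Hygro-marked (KK1902) and the other has no marker named. All 4 nup132Δ RFB ON libraries were above the nup132Δ RFB OFF library, by 0.257 on average. The exact permutation test gave p = 0.2, the smallest p that 4 against 1 allow.

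Pol ε libraries mirrored the Pol δ libraries in WT, but only in part in the mutants. Over 12 to 28 kb the Watson share of Pol ε libraries was 0.446, 0.469, 0.382 and 0.347 in nup132Δ RFB ON (KK1905, KK1906, KK1523 and KK1524). Their SD was 0.0563, against 0.158 among the Pol δ libraries of that group. The share was 0.482, 0.503 and 0.678 in the libraries labelled rpn10Δ RFB ON (KK1894, KK1895 and KK1582), 0.315 in WT RFB ON, and 0.732 and 0.733 in WT RFB OFF. KK1894 and KK1895 thus lay near 0.5, where the Pol δ libraries KK1868 and KK1869 had 0.6995 and 0.7002. All libraries labelled RFB ON lay below WT RFB OFF. KK1582, whose rtf1 counts were close to those of the RFB OFF libraries, lay closest to it. The 3 libraries labelled rpn10Δ RFB ON were above the 4 of nup132Δ RFB ON without overlap, by 0.143 on average (exact permutation p = 0.0286, the smallest possible, adjusted p = 0.171 over 12 tests). That comparison holds the 3 Pol ε libraries named above, each of which went against its label. Among Pol δ libraries the mean difference between the 2 mutants was 0.0327 (exact permutation p = 0.857). It was 0.159 without KK1581 and -0.0304 without KK1869.

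**Figure D2:**
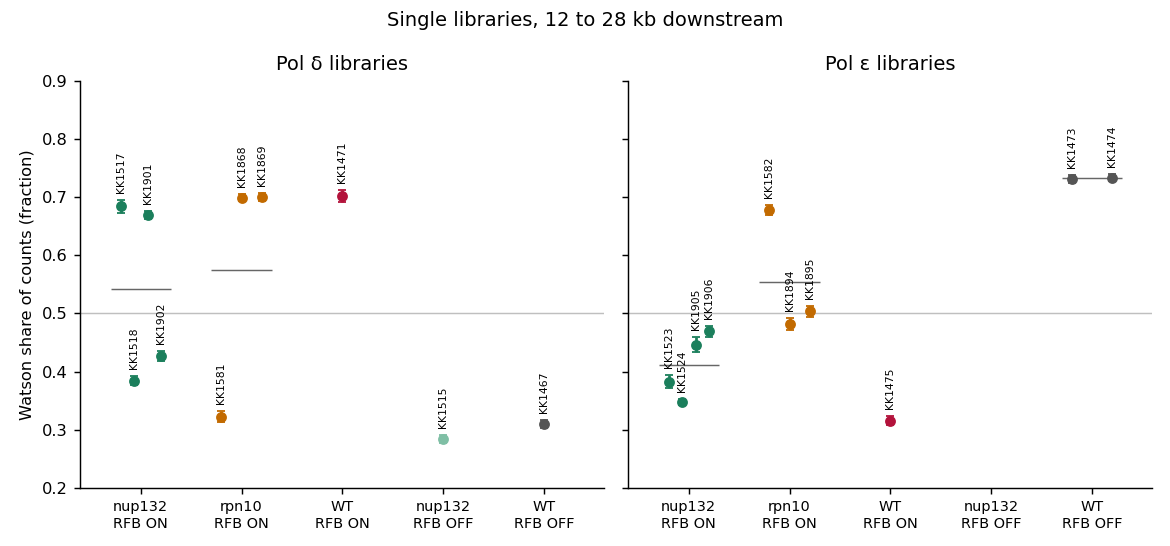
Watson share of counts (fraction) over 12 to 28 kb in every usable library, Pol δ libraries on the left and Pol ε libraries on the right, with 1 point per library, its 95% Wilson interval (counting error only) and the group mean as a bar where a group has several. The Pol δ libraries of nup132Δ RFB ON spread between 0.384 and 0.684, and KK1581 and KK1582 lie nearer to WT RFB OFF than the other libraries labelled rpn10Δ RFB ON.

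The δ/δ bias, the mean Pol δ usage of both strands, was above that of WT RFB OFF in the first segment in all RFB ON groups. It was 0.554 in nup132Δ RFB ON (SD 0.0245 over Pol δ and 0.0191 over Pol ε libraries), 0.537 in the libraries labelled rpn10Δ RFB ON (SD 0.0467 and 0.0146), 0.575 in WT RFB ON and 0.458 in WT RFB OFF. The excess over WT RFB OFF was 0.0956 in nup132Δ RFB ON (exact permutation p = 0.0267, adjusted p = 0.25), 0.0788 in the libraries labelled rpn10Δ RFB ON (exact permutation p = 0.075, adjusted p = 0.273) and 0.117 in WT RFB ON (exact permutation p = 0.167, the smallest possible). Without KK1581 and KK1582 the bias was 0.558, and in those 2 libraries it was 0.460. Without KK1894 and KK1895 it was 0.527. The difference from WT RFB ON was -0.0216 in nup132Δ RFB ON (exact permutation p = 0.56) and -0.0383 in the libraries labelled rpn10Δ RFB ON (exact permutation p = 0.5). The bias of WT RFB ON lay below that of the highest nup132Δ pair (0.592) and above that of the highest rpn10Δ pair (0.571).

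The bias was lower at 28 to 32 kb than at 12 to 16 kb in every RFB ON group. In windows of 4 kb from 12 to 16 kb onwards, it was 0.605, 0.566, 0.532, 0.513 and 0.496 in nup132Δ RFB ON. In the libraries labelled rpn10Δ RFB ON the same windows had 0.563, 0.551, 0.530, 0.503 and 0.507, and in WT RFB ON 0.668, 0.587, 0.540, 0.506 and 0.467. WT RFB OFF stayed between 0.437 and 0.480 in these windows. WT RFB ON thus started highest, at 0.189 above WT RFB OFF, and was 0.0281 above it by 28 to 32 kb, where nup132Δ RFB ON was still 0.0567 above. Without KK1581 and KK1582, the libraries labelled rpn10Δ RFB ON had 0.575, 0.578, 0.554, 0.523 and 0.527. The genome-wide median bias was 0.489 in nup132Δ RFB ON, 0.480 in the libraries labelled rpn10Δ RFB ON, 0.492 in WT RFB ON and 0.501 in WT RFB OFF.

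**Figure D3:**
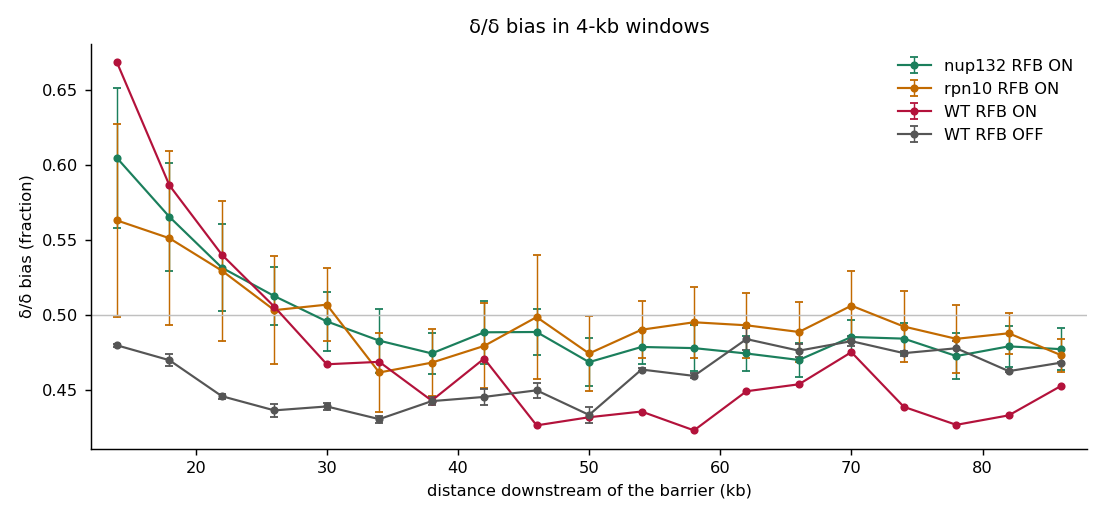
δ/δ bias (mean Pol δ usage of both strands, fraction) in windows of 4 kb, plotted at their centres against distance from the barrier in kb. Error bars combine the SD over Pol δ and over Pol ε libraries as the root of the sum of squares, and WT RFB ON, with 1 library of each, has none. WT RFB ON is highest at 12 to 16 kb (0.668) and lies below both mutants at 28 to 32 kb and from 36 kb on.

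Beyond 48 kb the bias of WT RFB ON lay below that of the other groups. Over 48 to 68 kb it was 0.474 in nup132Δ RFB ON, 0.488 in the libraries labelled rpn10Δ RFB ON, 0.439 in WT RFB ON and 0.464 in WT RFB OFF. Over 68 to 88 kb the values were 0.480, 0.489, 0.445 and 0.473 in the same order of conditions. nup132Δ RFB ON was 0.0350 and 0.0345 above WT RFB ON in these segments (exact permutation p = 0.04 in each, the smallest possible, adjusted p = 0.25 in each). The libraries labelled rpn10Δ RFB ON were 0.0494 and 0.0436 above it (exact permutation p = 0.125 and p = 0.0625, adjusted p = 0.412 and 0.25). WT RFB ON itself differed from WT RFB OFF by -0.0246 and -0.0282 there (exact permutation p = 0.667 and p = 0.333), and nup132Δ RFB ON was 0.0104 and 0.00637 above WT RFB OFF (exact permutation p = 0.387 and p = 0.587).

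Each strand crosses 0.5 where its main polymerase changes. On Crick, usage smoothed over 11 bins (3.3 kb) first lay below 0.5 for at least 3 kb at 19.35 kb in nup132Δ RFB ON, at 22.65 kb in the libraries labelled rpn10Δ RFB ON, at 15.45 kb in WT RFB ON and at 26.25 kb in WT RFB OFF. Of the 16 library pairs of nup132Δ RFB ON, 12 had a Crick crossing, between 17.85 and 24.45 kb. The range leaves out the pairs without a called crossing, so it does not place every pair beyond WT RFB ON. Crick usage of the 16 pairs over 12 to 28 kb was 0.387 to 0.542, and 0.387 to 0.403 in those with KK1517. The Crick crossing of WT RFB ON differed from that of WT RFB OFF by -10.8 kb, that is toward the barrier (exact permutation p = 0.167, the smallest possible). That of the libraries labelled rpn10Δ RFB ON was 7.2 kb farther than in WT RFB ON (exact permutation p = 0.688), and it lay at 42.15 kb without KK1581 and KK1582 and at 23.55 kb without KK1894 and KK1895.

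The Watson strand crosses in opposite directions in the 2 states of the barrier. In WT RFB OFF it passed above 0.5 at 31.05 kb. In WT RFB ON it passed below 0.5 at 40.65 kb, having been above it from 12 kb on. The libraries labelled rpn10Δ RFB ON crossed 0.5 at 35.25 kb (9 pairs, 28.95 to 38.85 kb), at 35.25 kb without KK1581 and KK1582, and at 13.35 kb without KK1894 and KK1895. The 9 pairs did not all cross in the same direction. Watson usage over 12 to 28 kb was 0.286 to 0.404 in pairs with KK1581 and 0.524 to 0.678 in the others. KK1581 and KK1582 by themselves passed above 0.5, at 29.25 kb, as in WT RFB OFF. In nup132Δ RFB ON, Watson usage of library pairs over 12 to 28 kb lay on both sides of 0.5, between 0.458 and 0.736. Of these 16 pairs 11 had a Watson crossing, between 12.75 and 76.65 kb (median 41.55 kb), with the 2 directions not told apart. The mean profile had none that lasted 3 kb, and its lowest smoothed Watson usage anywhere in the 76 kb was 0.488.

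Fork direction moved back to that of WT RFB OFF in steps. In 4-kb windows from 12 kb on, the difference from WT RFB OFF was -0.709, -0.637, -0.511, -0.321, -0.134 and -0.0345 in nup132Δ RFB ON, and -0.649, -0.558, -0.374, -0.211, -0.0600 and 0.0676 in the libraries labelled rpn10Δ RFB ON. In WT RFB ON it was -0.883, -0.851, -0.758, -0.583, -0.402 and -0.264, followed by -0.0905 at 36 to 40 kb. Both profiles moved within this stretch: WT RFB ON had its lowest smoothed value, -0.549, at 32.85 kb and its highest, 0.140, at 43.65 kb, while the 4-kb windows of WT RFB OFF were 0.127 at 24 to 28 kb and -0.0711 at 28 to 32 kb.

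A return was called at the first bin from which the smoothed difference from WT RFB OFF stayed within 0.1 for at least 10 kb. By this rule direction returned at 30.75 kb in nup132Δ RFB ON (882.75 kb of chromosome II), at 41.55 kb in the libraries labelled rpn10Δ RFB ON (893.55 kb) and at 43.95 kb in WT RFB ON (895.95 kb). WT RFB ON then stayed within 0.1 of WT RFB OFF up to 88 kb. In nup132Δ RFB ON, 8.7 kb of later bins were outside that limit, and in the libraries labelled rpn10Δ RFB ON 17.1 kb. Single library pairs returned between 27.75 and 53.25 kb in nup132Δ RFB ON (median 32.4 kb, 16 pairs) and between 17.85 and 64.65 kb in the libraries labelled rpn10Δ RFB ON (9 pairs), ranges that include the value of WT RFB ON. The place also depends on the tolerance: with 0.05 in place of 0.1 the return in WT RFB ON lay at 81.15 kb, and neither mutant had one.

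The return in nup132Δ RFB ON moved with the strand asymmetry, which was lower in this group (0.623) than in WT RFB ON (1.03). With usage divided by it, the return lay at 40.05 kb in nup132Δ RFB ON, 42.75 kb in the libraries labelled rpn10Δ RFB ON and 43.65 kb in WT RFB ON. Single library pairs then returned between 37.35 and 80.85 kb in nup132Δ RFB ON (median 46.8 kb, 16 pairs). In the libraries labelled rpn10Δ RFB ON 8 of 9 pairs had a return, between 12.15 and 56.85 kb. So divided, the return of these libraries lay at 44.25 kb without KK1581 and KK1582 and at 53.55 kb without KK1894 and KK1895. As measured, the return of the libraries labelled rpn10Δ RFB ON stayed at 41.55 kb without KK1581 and KK1582 and lay at 64.05 kb without KK1894 and KK1895. KK1581 and KK1582 by themselves returned at 17.85 kb.

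**Figure D4:**
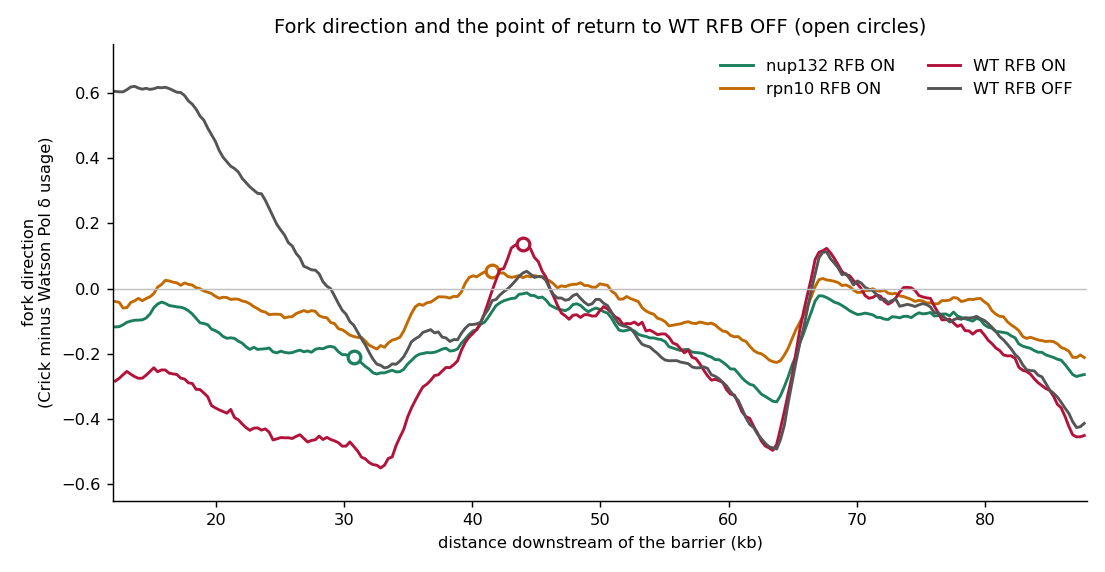
Fork direction (Crick minus Watson Pol δ usage, smoothed over 11 bins) against distance from the barrier in kb, 1 line per condition, with the called returns as open circles. At 12 to 16 kb all RFB ON groups lie below 0 and WT RFB OFF at 0.611, and the lines of WT RFB ON and WT RFB OFF run together from 43.95 kb on.

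Windows with a large difference of direction put this in the frame of the genome. Of 25 windows of 3 kb in the region, 8 were more than 0.2 more leftward in WT RFB ON than in WT RFB OFF, against 13 of 4192 in the genome (0.310%). In nup132Δ RFB ON there were 5 such windows of 25, against 13.6% of the genome, and in the libraries labelled rpn10Δ RFB ON 5 of 25, against 24.0%. More rightward by over 0.2 were 0 of 25 in nup132Δ RFB ON (13.3% of the genome), 2 of 25 in the libraries labelled rpn10Δ RFB ON (24.2%) and 0 of 25 in WT RFB ON (5 windows, 0.119%). At this limit of 0.2 the mutant counts stand beside a background of large differences over the whole genome, where their strand asymmetry was lower. In WT RFB ON the region thus held 8 of the 13 windows that were more leftward by over 0.2 and 0 of the 5 that were more rightward. At a limit of 0.1 it held 9 of 40 that were more leftward (0.954% of the genome) and 1 of 32 that were more rightward (0.763%). At a limit of 0.3, 5 of 25 windows were more leftward in nup132Δ RFB ON, against 0.716% of the genome. The libraries labelled rpn10Δ RFB ON then had 4 of 25 (11.5%) and WT RFB ON 7 of 25 (0.286%). More rightward by over 0.3 were 0 of 25 in each of these groups (0.382, 11.8 and 0.0239% of the genome).

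An origin raises the direction value from left to right across it. In WT RFB OFF, 687 origins were called over the genome, as a rise of at least 0.1, with a median efficiency (the rise divided by 2, as a percentage) of 31.9%. Among them, 2 lie in the region. The first was a weak, broad rise between 33.15 and 44.25 kb, steepest at 41.55 kb (893.55 kb of chromosome II), and ranked 518 of 687. Its steepest bin moved to 35.25 kb without the WT RFB OFF library KK1474 and to 34.65 kb with smoothing over 5 bins. Its place within the leg is thus not fixed. The second lay at 65.25 kb (917.25 kb), between 63.75 and 67.65 kb, and ranked 353. The next, at 88.95 kb, lies just outside.

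Across the first origin the efficiency was 12.3% in nup132Δ RFB ON (pairs 5.76 to 20.8%), 10.9% in the libraries labelled rpn10Δ RFB ON (pairs 4.29 to 21.9%), 34.0% in WT RFB ON and 14.8% in WT RFB OFF (14.56 and 15.03% with each Pol ε library). In WT RFB ON the direction began at -0.541 and ended at 0.138, and in WT RFB OFF it began at -0.243 and ended at 0.0533. The rise was thus 2.29 times as large in WT RFB ON, a gain of 19.1 percentage points. Among 677 origins more than 100 kb from the barrier, 0 gained as much, and their median change was 0.850 points (SD 2.57). This is a description of 1 pair of libraries and was not tested. More of the gain lay in the lower start of the leg than in its higher end.

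In the mutants the first origin was also set against WT RFB OFF and against the other origins. Its ratio to WT RFB OFF was 0.828 in nup132Δ RFB ON and 0.738 in the libraries labelled rpn10Δ RFB ON, and divided by the strand asymmetry 1.33 and 1.59, with 2.23 in WT RFB ON. The median ratio over the 677 distant origins was 0.573 in nup132Δ RFB ON, 0.484 in the libraries labelled rpn10Δ RFB ON and 1.03 in WT RFB ON. As high a ratio or higher was found at 2 of these origins in nup132Δ RFB ON and at 19 in the libraries labelled rpn10Δ RFB ON. Leaving out KK1581 and KK1582, the efficiency of the libraries labelled rpn10Δ RFB ON was 5.46%, a ratio of 0.369 where the distant origins had a median of 0.312 and 135 of them reached it. Without KK1894 and KK1895 it was 20.7%, a ratio of 1.399 where the median was 0.819 and 3 origins reached it. The place of the first origin among the others in these libraries thus depended on which were used.

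The second origin did not share the gain. Its efficiency was 16.0% in nup132Δ RFB ON (pairs 6.82 to 28.2%), 12.6% in the libraries labelled rpn10Δ RFB ON (pairs 4.44 to 23.4%), 30.0% in WT RFB ON and 30.2% in WT RFB OFF. The ratios to WT RFB OFF were 0.529, 0.419 and 0.995 in the RFB ON groups in that order. At 88.95 kb the efficiency was 7.81, 7.61, 16.6 and 15.9% in the 4 conditions. WT RFB ON and WT RFB OFF were thus within 1 point of each other at both, and the mutants lower, as they were over the genome. Without KK1581 and KK1582 the second origin had 6.50% in the libraries labelled rpn10Δ RFB ON, and without KK1894 and KK1895 21.4%.

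**Figure D5:**
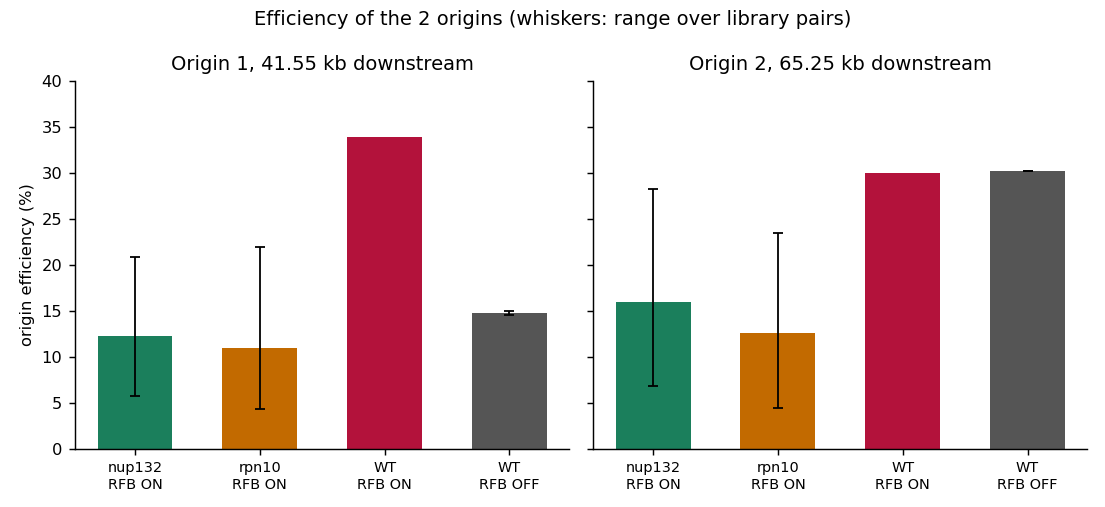
Efficiency (percent) of the origins at 41.55 and 65.25 kb in each condition, as bars from 0, with whiskers for the range over library pairs. At the first origin WT RFB ON (34.0%) stands above WT RFB OFF (14.8%) and both mutants, and at the second WT RFB ON (30.0%) and WT RFB OFF (30.2%) are level.

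The same windows were tested across the genome with edgeR's quasi-likelihood test, in 1 fit of all 20 libraries. In the test of polymerase by condition, 0 of 50 windows and strands of the region passed an adjusted p of 0.05 in any of 5 comparisons, and in the test of strand share 0 of 25 windows did. Over the genome few passed either: in the polymerase test 0.0239% for the libraries labelled rpn10Δ RFB ON against WT RFB ON and 0.0358% for them against WT RFB OFF, in the strand share test 0.0716% and 0.0954%, and 0% in the other 3 comparisons of each test. At an unadjusted p under 0.05 in the polymerase test, 16 of 50 in the region were past the limit for WT RFB ON against WT RFB OFF, where 0.489% of the genome were. For nup132Δ RFB ON against WT RFB OFF they were 11 of 50 (27.3% of the genome) and against WT RFB ON 9 of 50 (28.9%). For the libraries labelled rpn10Δ RFB ON they were 15 (52.9%) and 19 (51.8%). As shares of 50, all 4 mutant counts lay below their background. In the strand share test 8 of 25 windows were past it for WT RFB ON against WT RFB OFF, where 0.549% of the genome were. For nup132Δ RFB ON they were 7 of 25 against WT RFB OFF (25.3%) and 4 against WT RFB ON (27.9%), and for the libraries labelled rpn10Δ RFB ON 9 (59.6%) and 10 (57.6%).

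Within the region, the largest values against WT RFB OFF lay at its near end. On the Watson strand the log2 ratio of Pol δ to Pol ε at 12 to 15 kb was higher than in WT RFB OFF by 3.23 in nup132Δ RFB ON (SE 0.946, edgeR adjusted p = 0.178), by 2.78 in the libraries labelled rpn10Δ RFB ON (SE 0.955, edgeR adjusted p = 0.0530) and by 4.51 in WT RFB ON (SE 1.21, edgeR adjusted p = 1.00). At 15 to 18 kb the same differences were 2.89, 2.51 and 3.78. Against WT RFB ON, nup132Δ RFB ON differed most on Watson at 12 to 15 kb, by -1.28 (edgeR adjusted p = 0.324), and on Crick at 27 to 30 kb, by 1.08 (edgeR adjusted p = 0.166). The libraries labelled rpn10Δ RFB ON differed most from WT RFB ON on Watson at 12 to 15 kb, by -1.73 (edgeR adjusted p = 0.162), and at 21 to 24 kb, by -1.49 (edgeR adjusted p = 0.0828). In the strand share test, the differences from WT RFB OFF at 12 to 15 and 15 to 18 kb were 4.79 and 4.37 on the log2 scale in nup132Δ RFB ON, 4.31 and 3.99 in the libraries labelled rpn10Δ RFB ON, and 6.12 and 5.67 in WT RFB ON. Against WT RFB ON the largest were -1.91 at 30 to 33 kb and -1.85 at 27 to 30 kb in nup132Δ RFB ON, and -2.50 at 30 to 33 kb and -2.49 at 21 to 24 kb in the libraries labelled rpn10Δ RFB ON.

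The spread that this fit assumes is shared by all libraries, including those that went against their labels. With the 5 WT libraries alone, a fit chosen after seeing the data whose spread rests on the 2 WT RFB OFF Pol ε libraries, 21 of 50 windows and strands passed, against 7.86% of the genome. Watson was higher and Crick lower in WT RFB ON in all 9 windows from 12 to 39 kb, by 4.49 at the near end and 0.41 at the far end on Watson. In strand share 9 windows of 25 were higher, again those from 12 to 39 kb, and 1 lower, at 42 to 45 kb, against 8.28% of the genome. In the mutants, calls also came and went with the libraries and the tool. DESeq2 on all 20 libraries called 0 of 50 for nup132Δ RFB ON against WT RFB ON (2.06% of the genome), 4 against WT RFB OFF (1.73%), 15 for the libraries labelled rpn10Δ RFB ON against WT RFB ON (45.6%), 15 against WT RFB OFF (48.2%), and 0 for WT RFB ON against WT RFB OFF (0.0119%). In edgeR with KK1581 and KK1582 left out, also chosen after seeing the data, 10 of 50 passed for nup132Δ RFB ON against WT RFB ON (45.5%) and 12 against WT RFB OFF (44.9%), and 22 and 25 for the remaining libraries labelled rpn10Δ RFB ON (72.3 and 73.5%). Each of these mutant shares of 50 lay below its background, except that of nup132Δ RFB ON against WT RFB OFF in DESeq2.

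Over the last 2 segments fork direction in WT was nearly the same with the barrier on and off. Over 48 to 68 kb it was -0.172 in nup132Δ RFB ON, -0.0864 in the libraries labelled rpn10Δ RFB ON, -0.190 in WT RFB ON and -0.201 in WT RFB OFF, and over 68 to 88 kb -0.124, -0.0709, -0.141 and -0.131. WT RFB ON minus WT RFB OFF was 0.0104 (exact permutation p = 0.5) and -0.0102 (exact permutation p = 0.667). The libraries labelled rpn10Δ RFB ON were 0.114 above WT RFB OFF over 48 to 68 kb (exact permutation p = 0.05, adjusted p = 0.25), with the largest 4-kb difference, 0.243, at 60 to 64 kb, just left of the second origin, where WT RFB OFF was most leftward. There nup132Δ RFB ON was 0.123 above. Without KK1581 and KK1582 the segment difference was 0.146, and without KK1894 and KK1895 it was 0.0792. With usage divided by the strand asymmetry, the libraries labelled rpn10Δ RFB ON and WT RFB ON differed by -0.000600 over 48 to 68 kb. In the nup132Δ RFB OFF library the Watson share of Pol δ was 0.671 over 48 to 68 kb and 0.550 over 68 to 88 kb, against 0.629 and 0.563 in WT RFB OFF.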

How the data were processed

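The authors aligned the Pu-Seq reads with Bowtie2 (version and genome build not given in the sources used here), and a custom Perl script gave the deposited counts, whole numbers of read ends per 300-bp bin and strand with no normalization. The end of chromosome II differs by 2.046 kb from the reference at hand, so that no genes or sequences were taken from it and coordinates are those of the files. Conditions and strain numbers come from the labels. Libraries with a mean under 10 counts per bin were left out. The region and its lists were chosen with earlier results of these data known.

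Segments were compared by exact permutation of strain labels within each polymerase (two-sided) with Benjamini-Hochberg adjustment over 40 tests. The smallest p was 0.04 for nup132Δ RFB ON against WT RFB ON, 0.0625 for rpn10Δ RFB ON against WT RFB ON, 0.0133 and 0.025 for them against WT RFB OFF, and 0.167 for WT RFB ON against WT RFB OFF. Windows of 3 kb were tested with edgeR 4.0.16 (quasi-likelihood, TMM, adjustment over all windows, threshold 0.05), with DESeq2 1.42.0 as an alternative, in R 4.3.3. Of these, the windows past the threshold were to be named, or otherwise the 2 largest per comparison. Crossings, returns and origins were read from usage smoothed over 11 bins in Python 3.11.15 with numpy 2.4.6. Simulated data were used to test the direction difference in the first segment, the return, the strand asymmetry and the window tests. Crossings, origins, the δ/δ bias, the Watson share and the segment permutation tests were not tested in this way. Replicate pairs differed by a chi-square per degree of freedom of 2.52 to 155, above counting error, and none were merged. Alternatives covered the scaling, averaging, smoothing, tolerance, filter, window size, marker and single libraries.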

Additional observations from a re-analysis of the deposited data

Results flagged for a closer look

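The 2 groups of 4 libraries, Pol δ and Pol ε of nup132Δ RFB ON, were examined for a library that stood apart in 16 sets of values in all. In 1 set there was one, and chance alone gives about 1 in 20. The nup132Δ RFB ON Pol δ library KK1517 had 5396348 counts in all, while the other 3 of its group had 12065673 to 13270315. Its gap to the nearest of them was 0.847 of the range of the group. It held 28165 counts in the region, the lowest of the usable libraries, and its Watson share over 12 to 28 kb was 0.684, the highest of its group. Whether its depth bears on that share was not tested.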

How the results depend on the processing

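Most limits come from the number of libraries: WT RFB ON has 1 of each polymerase, and 4 of the 6 libraries labelled rpn10Δ RFB ON go against their labels. Of 999 alternatives over 95 results, 867 were counted as leaving the result as it was, 94 as moving it and 38 as turning its direction. Of the 867, 491 were segment values, which were counted so whenever their sign held, whatever their size. The direction of the libraries labelled rpn10Δ RFB ON minus WT RFB ON over 12 to 28 kb was so counted at 0.153 (Hygro-marked only) and at 0.451 (without KK1894 and KK1895). Alternatives that gave no return or crossing were not counted. For segments, no adjusted p could be read as stable or unstable, since none passed in any case and several comparisons could not reach 0.05. In nup132Δ RFB ON the spread between libraries exceeded counting error in every segment, and between the 2 WT RFB OFF Pol ε libraries it did not. Causes of the shifts below were not tested. No paired analysis was possible because the libraries carry strain numbers, which no conditions share.

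With usage divided by the genome-wide strand asymmetry, the bias over 12 to 28 kb relative to WT RFB ON turned to 0.0131 in nup132Δ RFB ON and 0.00636 in the libraries labelled rpn10Δ RFB ON. The direction of nup132Δ RFB ON relative to WT RFB ON turned to -0.0137, -0.0910 and -0.0626 in the 3 later segments, and that of the libraries labelled rpn10Δ RFB ON to -0.000600 over 48 to 68 kb and -0.0152 over 68 to 88 kb. Relative to WT RFB OFF, nup132Δ RFB ON turned to -0.00532 and -0.00591 in bias and -0.0755 and -0.0690 in direction over the last 2 segments, and the libraries labelled rpn10Δ RFB ON to -0.00611 over 28 to 48 kb and -0.0215 over 68 to 88 kb in direction. Returns moved to 40.05 kb in nup132Δ RFB ON and 43.65 kb in WT RFB ON.

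With the shallow libraries included, the bias over 12 to 28 kb relative to WT RFB ON turned to 0.115 in nup132Δ RFB ON and 0.0980 in the libraries labelled rpn10Δ RFB ON. These values carry the counting error of a WT RFB ON library with 0.0756 counts per bin. The direction turned to -0.0279 and -0.00719 in nup132Δ RFB ON relative to WT RFB ON over the last 2 segments, to -0.0345 and -0.0901 relative to WT RFB OFF, to -0.0366 over 68 to 88 kb in the libraries labelled rpn10Δ RFB ON relative to WT RFB OFF, and to -0.00660 over 48 to 68 kb in WT RFB ON relative to WT RFB OFF.

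With mutants of no named marker alone, the direction of nup132Δ RFB ON turned to -0.0215 over 48 to 68 kb relative to WT RFB ON, and to -0.0110 and -0.00992 over the last 2 segments relative to WT RFB OFF. That of the libraries labelled rpn10Δ RFB ON turned to -0.0155 and -0.0257 over 68 to 88 kb relative to WT RFB ON and WT RFB OFF, and their return lay at 17.85 kb. With counts summed, nup132Δ RFB ON minus WT RFB OFF over 68 to 88 kb was -0.00857. It ranged between -0.00775 and 0.0175 with single libraries left out. Without KK1894 and KK1895, a choice made after seeing the data, the libraries labelled rpn10Δ RFB ON differed from WT RFB OFF by -0.00388 there and returned at 64.05 kb.

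The return in WT RFB ON was at 81.15 and 35.55 kb with tolerances of 0.05 and 0.2, at 54.45 and 38.25 kb with smoothing over 5 and 21 bins, and at 37.95 kb with a stay of 5 kb. In the libraries labelled rpn10Δ RFB ON it was at 26.25 kb with a tolerance of 0.2 and 67.05 kb with smoothing over 5 bins, and a stay of 20 kb gave none. Crossings moved to 41.85 kb (Watson, 5 bins) and 15.75 kb (Crick, 21 bins) in WT RFB ON, and to 25.65 and 26.55 kb (Crick, 5 and 21 bins) in WT RFB OFF. With single libraries left out, the Watson crossing ranged between 15.45 and 36.75 kb in the libraries labelled rpn10Δ RFB ON, the low end without KK1869, and between 30.75 and 31.05 kb in WT RFB OFF. With smoothing over 21 bins the first origin had 9.63, 7.49, 23.3 and 9.90% in nup132Δ RFB ON, the libraries labelled rpn10Δ RFB ON, WT RFB ON and WT RFB OFF.

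With single libraries left out, the Watson share of Pol δ libraries in nup132Δ RFB ON minus nup132Δ RFB OFF over 28 to 48 kb ranged between -0.0226 and 0.0189. The libraries labelled rpn10Δ RFB ON minus nup132Δ RFB ON ranged between -0.0304 and 0.159 over 12 to 28 kb, and between -0.0359 and 0.00566 over 28 to 48 kb, the high end without KK1517.

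Window calls depended most on the libraries in the fit. Those in the region are given first for the polymerase test and then for strand share. DESeq2 called 15 and 10 in the libraries labelled rpn10Δ RFB ON against WT RFB ON, 15 and 9 against WT RFB OFF, and 4 and 1 in nup132Δ RFB ON against WT RFB OFF. Leaving out single libraries gave 0 to 18 and 0 to 13 for the libraries labelled rpn10Δ RFB ON against WT RFB ON, and 0 to 21 and 0 to 12 against WT RFB OFF, the high ends without KK1582. Fits chosen after seeing the data gave these calls. Without KK1581 and KK1582 there were 10 and 5 in nup132Δ RFB ON against WT RFB ON, 12 and 6 against WT RFB OFF, 22 and 13 in the libraries labelled rpn10Δ RFB ON against WT RFB ON, and 25 and 14 against WT RFB OFF. Without KK1894 and KK1895 nup132Δ RFB ON had 4 and 3 against WT RFB ON and 9 and 5 against WT RFB OFF, and without all rpn10Δ libraries 3 and 3, and 9 and 5. WT libraries alone gave 21 and 10.

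Over the genome the polymerase test called 0 to 3 windows and strands per comparison in the main setting, and strand share 0 to 4. DESeq2 called 173 and 145 for nup132Δ RFB ON against WT RFB ON and WT RFB OFF, 3820 and 4044 for the libraries labelled rpn10Δ RFB ON, and 1 for WT RFB ON against WT RFB OFF. Without KK1582, the libraries labelled rpn10Δ RFB ON had 5913 and 6055, and without KK1581 and KK1582 6061 and 6161, with 3815 and 3768 in nup132Δ RFB ON. Without KK1894 and KK1895, nup132Δ RFB ON had 3232 and 3247, and without all rpn10Δ libraries 2914 and 2746. WT libraries alone gave 659. In strand share, DESeq2 called 7 and 22 for nup132Δ RFB ON and 2362 and 2491 for the libraries labelled rpn10Δ RFB ON, again against WT RFB ON and then WT RFB OFF. Without KK1582 the libraries labelled rpn10Δ RFB ON had 3299 and 3334, and without KK1581 and KK1582 3325 and 3353, with 2260 and 2231 in nup132Δ RFB ON. Without KK1894 and KK1895, nup132Δ RFB ON had 2061 and 2050, and without all rpn10Δ libraries 1719 and 1584. WT libraries alone gave 347.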
